A study of Danio rerio with 3 samples.

Results

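pMN2 is the name that the authors' integrated annotation gives to 368 of the 6264 cells of this series, 125 at 24 hours post fertilisation (hpf), 143 at 36 hpf and 100 at 48 hpf. The members were taken by that name alone, and they make up a single cluster number of the authors' clustering that holds 0 cells of any other class. The cells came from wild-type zebrafish embryos of the strain Tg(olig2:EGFP), in which regulatory sequence of olig2 drives a green fluorescent protein. No treatment was given at any stage, and the EGFP-positive cells were sorted from dissociated, deyolked embryos before their RNA was read cell by cell. The labels call the material spinal cord cells. There was 1 library for each of the 3 stages, and the sources used here do not give the number of embryos in each. EGFP can outlast the activity of olig2, so the sort also takes cells that descend from olig2-positive progenitors. The question was how the pMN2 cells differed from the other sorted cells of the same stage, and whether that changed over the stages.

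The pMN domain is a band of progenitors in the ventral spinal cord. It is marked by the transcription factor gene olig2, and it gives rise to motor neurons first and to cells of the oligodendrocyte lineage later. The progenitor genes sox2 and nkx6.1 are also expected in such cells, but the tables used here hold values per cell and no values per gene, so the name pMN2 was not tested against olig2, sox2 or nkx6.1. A dividing cell copies its DNA in S phase and then passes through G2 and mitosis (together G2M), and genes of each phase can be summed into a score per cell. A score above 0 means more RNA of that phase's genes than the comparison genes of the same scoring run, and the deposited phase name follows the higher score, with G1 where neither is above 0. The deposited CC.Difference is the S score minus the G2M score.

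The libraries held 1826, 2044 and 2394 cells at 24, 36 and 48 hpf, with 16432785, 10656224 and 17562789 UMIs, the molecular tags that count captured RNA molecules. pMN2 cells carried 7.30%, 9.31% and 5.87% of these UMIs. The 24 and 36 hpf libraries shared 7 cell barcodes, of which 1 was pMN2 at 24 hpf and 1 at 36 hpf, and neither shared a barcode with the 48 hpf library. At 48 hpf, the first 7 bases of the barcode matched no barcode of the earlier libraries in 90% of the pMN2 cells and 86.8% of the other cells. By the same measure against the other 2 stages, at 24 hpf this was 0.8% of the pMN2 cells and 0.882% of the other cells, and at 36 hpf 2.10% of the pMN2 cells and 2.47% of the other cells. A difference between 48 hpf and the earlier stages cannot be told apart from this difference between barcode sets. The stages are not replicated, so no p-value was computed. The intervals of shares are exact (Clopper-Pearson) 95% binomial intervals, and those of ratios of shares are exact conditional 95% intervals. They cover counting error only. The class was made by clustering the same cells, so each value of pMN2 against other cells is a description and not a test.

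The share of pMN2 differed less between stages than those of the other pMN classes. It was 6.85% of all cells at 24 hpf (5.73 to 8.10) and 7.00% at 36 hpf (5.93 to 8.19). At 48 hpf it was 4.18% (3.41 to 5.06). The 48 hpf share was 1.64-fold lower than the 24 hpf share (95% interval 1.25 to 2.15). Against the 36 hpf share it was 1.67-fold lower (1.29 to 2.18). A share was called changed at a ratio of at least 2 with intervals that did not overlap. By that rule pMN2 was called for none of the 3 pairs of stages, whereas 39.3% of the 28 classes were called at 36 over 24 hpf, 57.1% at 48 over 24 hpf and 50% at 48 over 36 hpf. pMN1 was 12.6%, 8.76% and 2.30% of the cells over the 3 stages, and pMN3 was 11.6%, 4.65% and 0.543%. The share of pMN1 was 5.48-fold lower at 48 hpf than at 24 hpf (4.07 to 7.50) and that of pMN3 was 21.4-fold lower at 48 hpf than at 24 hpf (12.2 to 40.8), intervals that did not overlap that of pMN2.

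Among the cells of the 3 pMN classes of the integrated annotation, pMN2 therefore took up a growing part. It was 22.0% of them at 24 hpf (125 of 567 cells, 18.7 to 25.7), 34.3% at 36 hpf (143 of 417, 29.7 to 39.1) and 59.5% at 48 hpf (100 of 168, 51.7 to 67.0). The intervals of the 3 stages did not overlap. At 24 hpf pMN2 was the smallest of the 3 classes, and at 48 hpf it was the largest. The names of the stage tables, a second naming described below, did not show this growth. By them 213 cells were pMN2 at 24 hpf, against 142 pMN1 and 171 pMN3. At 36 hpf 125 cells were pMN2, against 160 pMN1 and 198 pMN3, and at 48 hpf no cell was named pMN2. When the libraries were weighted to a common distribution of UMIs per cell, the shares of pMN2 among all cells were 5.79%, 11.4% and 4.71%, so the 36 hpf value moved by more than 1.5 times and the 48 hpf share became called lower than the 36 hpf share. That call treated weighted counts, which add up to 875 per stage, as if they were counts of cells. Its intervals are therefore not exact.

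**Figure D1:**
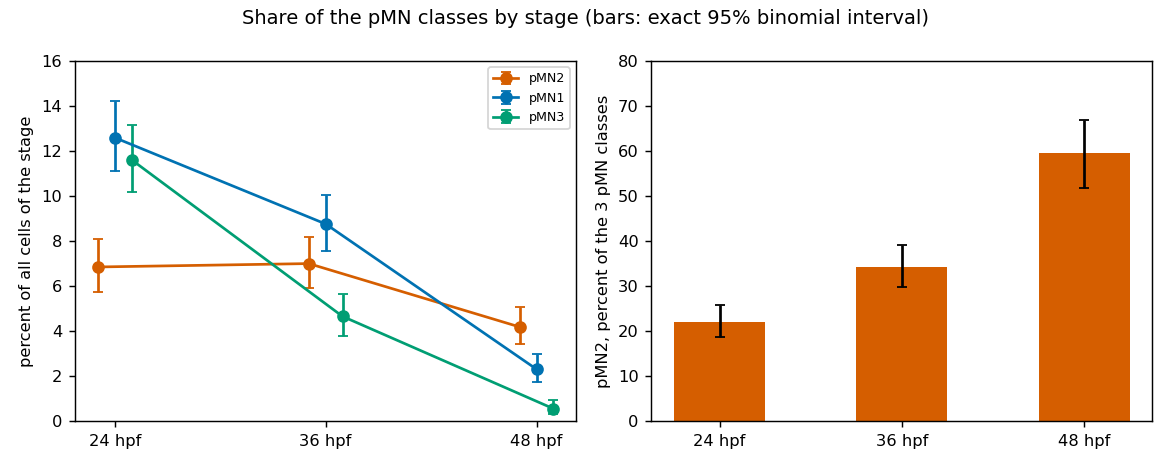
Left, percent of all cells of a stage in pMN2, pMN1 and pMN3, all by the integrated names. Right, pMN2 as a percent of the cells of these 3 classes. Points and bars are 1 library each with exact 95% binomial intervals. pMN2 was 6.85%, 7.00% and 4.18% of all cells at 24, 36 and 48 hpf, while its part of the pMN classes was 22.0%, 34.3% and 59.5%.

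The G2M score set pMN2 apart from the other classes at every stage. The median G2M score was 0.919 in pMN2 cells and -0.0130 in other cells at 24 hpf, 0.860 and -0.145 at 36 hpf, and 0.699 and -0.202 at 48 hpf. Among the 17 classes with at least 20 cells at 24 hpf, and the 21 such classes at 36 and at 48 hpf, pMN2 had the highest median G2M score and the lowest median CC.Difference at each stage. The next class was pMN1 at 24 hpf with a median of 0.349, V2 IN Precursor (precursors of V2 interneurons) at 36 hpf with 0.361, and pMN1 at 48 hpf with 0.295. The stage tables hold other values of the scores, and there too the pMN2 median was the higher: 0.530 in pMN2 and -0.0913 in other cells at 24 hpf, 0.687 in pMN2 and -0.155 in other cells at 36 hpf, and 0.729 in pMN2 and -0.0684 in other cells at 48 hpf.

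The median S score was -0.0358 in pMN2 cells and -0.0561 in other cells at 24 hpf, -0.105 and -0.253 at 36 hpf, and 0.0116 and -0.279 at 48 hpf. The G2M-called pMN2 cells, the larger group, had median S scores of -0.139, -0.176 and -0.0915, and the lowest S scores of the S-called pMN2 cells were 0.554, 0.426 and 0.443. Few pMN2 cells lay in the middle of the CC.Difference scale. A CC.Difference within 0.5 of 0, which marks cells with no clear lead of either score, was found in 8% of the pMN2 cells at 24 hpf (10 of 125), 11.9% at 36 hpf (17 of 143) and 9% at 48 hpf (9 of 100). In pMN1 this band held 54.8%, 45.3% and 52.7% of the cells at the same stages, and the intervals of pMN2 and pMN1 did not overlap at any stage. In pMN3 it held 25.9% (20.2 to 32.4), 26.3% (17.8 to 36.4) and 10 of 13 cells, and the pMN3 interval overlapped that of pMN2 (7.08 to 18.4) at 36 hpf. In all other cells, which include the G1-called ones, it held 68.0%, 80.3% and 96.5%.

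The larger group of pMN2 cells lay at the G2M end and the smaller at the S end. A CC.Difference below -0.5 was found in 83, 98 and 59 pMN2 cells at 24, 36 and 48 hpf, which is 66.4%, 68.5% and 59%. A CC.Difference above 0.5 was found in 32, 28 and 32 cells, which is 25.6%, 19.6% and 32%. The SD of CC.Difference over cells was 0.995 in pMN2 and 0.609 in pMN1 at 24 hpf, 1.01 and 0.710 at 36 hpf, and 1.03 and 0.623 at 48 hpf. Both scores were above 0 in 28% of the pMN2 cells and 77.0% of the pMN1 cells at 24 hpf, in 22.4% and 69.3% at 36 hpf, and in 40% and 83.6% at 48 hpf, with intervals of pMN2 and pMN1 that did not overlap at any stage. In pMN3 the shares were 36.8%, 29.5% and 38.5%, and their intervals overlapped those of pMN2 at every stage.

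The highest G2M scores of each library fell to a large extent in this class. A G2M score above 1 occurred in 174 cells of the series, and 127 of them (73.0%, 65.7 to 79.4) were pMN2, which has 368 of the 6264 cells. By stage these were 49 of 58 cells at 24 hpf, 50 of 84 at 36 hpf and 28 of 32 at 48 hpf. The pMN1 class had 1, 2 and 0 such cells and pMN3 had 3, 0 and 0. V2 IN Precursor, a class of 16, 23 and 10 cells, had 2, 6 and 2, and Retinal Progenitor had 0, 10 and 0. At 36 hpf such scores were found in 26.1% of the V2 IN Precursor cells, 9.90% of the Retinal Progenitor cells and 35.0% of the pMN2 cells. An S score above 1 was less tied to pMN2, which held 75 of 225 such cells (33.3%, 27.2 to 39.9). It held 22 of 82 at 24 hpf, where pMN3 had 38, then 27 of 103 at 36 hpf, where pMN1 had 25 and pMN3 16, and 26 of 40 at 48 hpf, where pMN1 had 10 and pMN3 0. At 24 hpf such S scores were found in 17.6% of the pMN2 cells, 17.9% of pMN3, 4.35% of pMN1 and 5 of 16 V2 IN Precursor cells. At 36 hpf they were found in 18.9% of pMN2, 16.8% of pMN3, 14.0% of pMN1 and 21.7% of V2 IN Precursor. They were also found there in 16.8% of Retinal Progenitor (17 cells) and 5 of 15 cells of the class MEP Glia (described below). At 48 hpf the shares were 26% in pMN2, 18.2% in pMN1, 10% in V2 IN Precursor and 5.66% in MEP Glia, with 0 of 13 cells in pMN3.

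**Figure D2:**
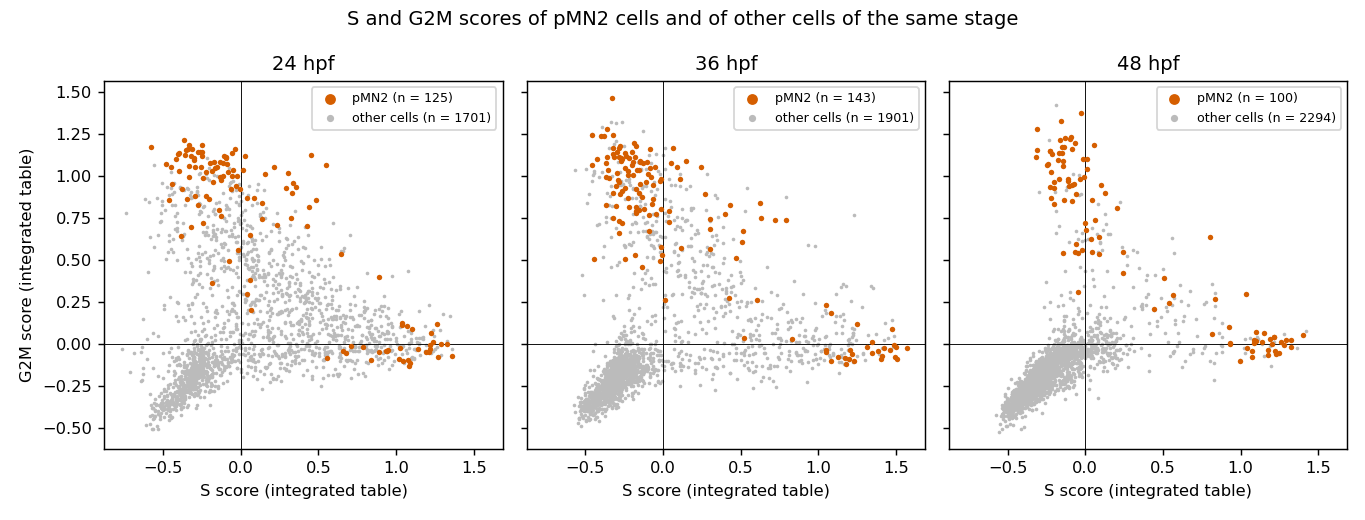
S score (horizontal) and G2M score (vertical) of each cell in the integrated table, both scores without a unit, for pMN2 cells and for other cells of the same stage. pMN2 cells lie toward the ends of both arms, with 83, 98 and 59 cells below a CC.Difference of -0.5 and 32, 28 and 32 above 0.5 at 24, 36 and 48 hpf. Other cells lie there too, with 260, 171 and 32 below -0.5 and 284, 203 and 49 above 0.5.

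No pMN2 cell was called G1 at any stage in either set of calls, and for 0 of 125, 0 of 143 and 0 of 100 cells the exact interval allows up to 2.91%, 2.55% and 3.62%. The absence of G1 calls was shared with pMN1, where 0 of 230, 0 of 179 and 0 of 55 cells were called G1 in both sets. It was thus not particular to pMN2. For pMN3 the integrated table called G1 in 3 of 212, 10 of 95 and 2 of 13 cells. In all other cells, with pMN1 and pMN3 among them, the G1 share of the integrated table was 36.7%, 66.0% and 83.4%. G2M calls were 91 of the pMN2 cells at 24 hpf, or 72.8% (64.1 to 80.4). They were 111 at 36 hpf, or 77.6% (69.9 to 84.2), and 63 at 48 hpf, or 63% (52.8 to 72.4). In other cells they made up 29.0%, 16.7% and 6.36%. Among the other cells called S or G2M, which leaves out the G1-called ones, they made up 45.9%, 49.0% and 38.3%. S calls made up 27.2%, 22.4% and 37% of the pMN2 cells and 34.3%, 17.4% and 10.2% of the other cells. The G2M shares of pMN2 at the 3 stages had overlapping intervals.

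Against pMN1 and pMN3, the classes most alike by name, pMN2 held more G2M calls and fewer S calls at 24 and 36 hpf. The G2M share was 72.8% in pMN2, 53.0% in pMN1 and 23.1% in pMN3 at 24 hpf, and 77.6%, 52.5% and 13.7% at 36 hpf, and the interval of pMN2 overlapped neither of the others at these stages. At 48 hpf the shares were 63%, 43.6% and 30.8%, with intervals that overlapped, and pMN3 had 13 cells there. By the calls of the stage tables the 48 hpf difference between pMN2 and pMN1 was smaller, 68% (57.9 to 77.0) against 61.8% (47.7 to 74.6).

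**Figure D3:**
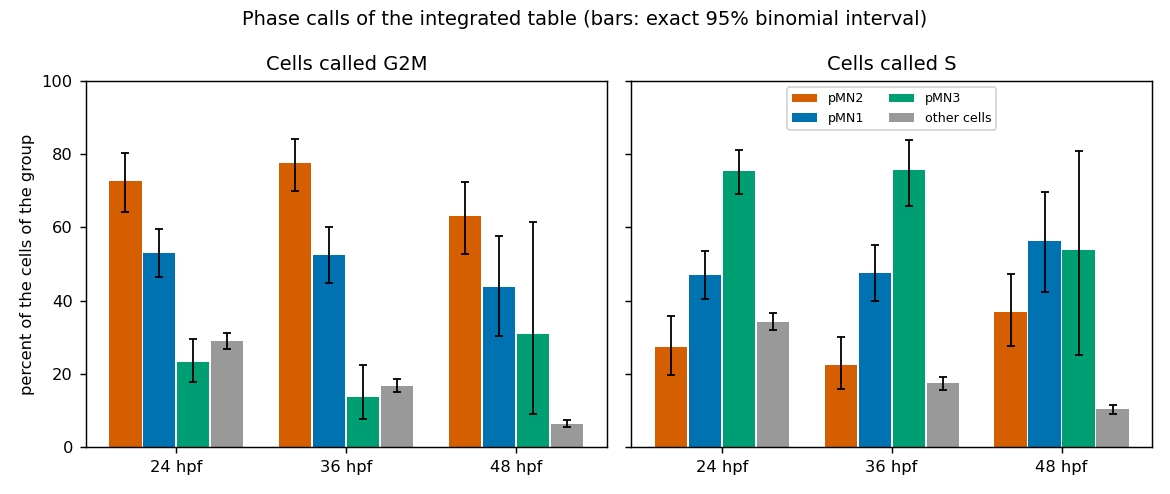
Percent of the cells called G2M (left) and S (right) in the integrated table, for pMN2, pMN1, pMN3 and all other cells, with exact 95% binomial intervals. pMN2 has the highest G2M share at each stage, 72.8%, 77.6% and 63%.

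The part of pMN2 in all cells called G2M was higher at 36 hpf than at 24 hpf in both sets of calls, and at 48 hpf it depended on the set. By the integrated calls it was 15.6% of the G2M cells at 24 hpf (91 of 585, 12.7 to 18.8), 25.9% at 36 hpf (111 of 428, 21.8 to 30.4) and 30.1% at 48 hpf (63 of 209, 24.0 to 36.9). By the calls of the stage tables it was 17.3% (14.1 to 20.8), 25.9% (21.8 to 30.3) and 22.4% (17.8 to 27.5). The intervals of 48 and 24 hpf were apart in the integrated calls and overlapped in the stage-table calls. Of the cells called S, pMN2 made up 5.51%, 8.84% and 13.6% by the integrated table and 5.58%, 9.17% and 6.46% by the stage tables. The calls of pMN2 cells themselves hardly depended on the table. The same phase stood in both for 361 of the 368 pMN2 cells (98.1%), against 5061 of the 5896 other cells (85.8%). At 48 hpf this was 95 of 100 pMN2 cells and 72.8% of the other cells. All 5 pMN2 cells that differed there were S in the integrated table and G2M in the stage table.

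The names in the stage tables, a second naming with 1 table per stage, spread the pMN2 cells over other classes. They kept the name pMN2 in 8 of 125 cells at 24 hpf (6.40%, 2.80 to 12.2), in 21 of 143 at 36 hpf (14.7%, 9.33 to 21.6) and in 0 of 100 at 48 hpf, where the stage table has no such name. pMN1 cells kept theirs more often, in 50.9%, 69.3% and 63.6%, and the intervals of pMN2 and pMN1 did not overlap at any stage. pMN3 cells kept theirs in 34.4% and 66.3% at 24 and 36 hpf, and in 0 of 13 cells at 48 hpf, where the interval reaches 24.7%. The name pMN2 thus marks mostly different cells in the integrated table and in the stage tables.

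At the earlier stages the name pMN3 took the largest number of pMN2 cells. It was given to 67 cells at 24 hpf (53.6%, 44.5 to 62.6) and to 93 at 36 hpf (65.0%, 56.6 to 72.8). The name pMN1 was given to 23 cells (18.4%) and 27 cells (18.9%). At 24 hpf 14 cells (11.2%) were NP and 5 (4%) were Pre-OPC1, by its name a forerunner of oligodendrocyte precursor cells. A further 8 cells had 4 other names at 24 hpf, and 2 cells had 2 other names at 36 hpf. Names that begin with pMN covered 98 of 125 pMN2 cells at 24 hpf (78.4%, 70.2 to 85.3) and 141 of 143 at 36 hpf (98.6%).

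At 48 hpf the names MEP Glia and RG took most pMN2 cells in the stage table. MEP Glia was given to 47 of the 100 cells (36.9 to 57.2), RG to 26 (17.7 to 35.7) and pMN1 to 25 (16.9 to 34.7), with 1 cell each named dl IN and MN1. MEP glia are found where motor axons exit the spinal cord, and RG is the usual short form of radial glia, which act as neural stem cells. Names that begin with pMN covered 25% of the pMN2 cells (16.9 to 34.7), an interval below those of both earlier stages. The stages are not like for like here, because the 48 hpf stage table has no name pMN2. pMN1 was the only name of this kind that pMN2 cells had at 48 hpf. The name pMN1 alone was given to 18.4%, 18.9% and 25% of the pMN2 cells at 24, 36 and 48 hpf, so its share did not fall. Seen from the stage table, pMN2 was the largest source of the name MEP Glia, with 47 of the 90 cells (52.2%, 41.4 to 62.9), against 20 cells each from the integrated classes MEP Glia and pMN1. It was 26 of the 218 cells named RG (11.9%, 7.94 to 17.0), most of which were NP1 (111 cells) or RG (62 cells) in the integrated table, and 25 of the 69 cells named pMN1 (36.2%, 24.99 to 48.7).

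The stage-table names divided the pMN2 cells by phase. Of the 26 cells named RG, 25 were called G2M (96.2%, 80.4 to 99.9), with a median G2M score of 1.02 and a median S score of -0.0869. Of the 47 named MEP Glia, 19 were called G2M (40.4%, 26.4 to 55.7) and 28 were called S, with a median S score of 0.923. These intervals did not overlap, and the median UMI counts were close, 10523.5 in the cells named RG and 10380 in those named MEP Glia. The 25 cells named pMN1 held 17 G2M calls (68%, 46.5 to 85.1).

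Among cells of other classes with these names, the phase calls varied by class. At 48 hpf the 62 cells that were RG in both tables were called S in 57 cells and G2M in 4, with a median S score of 0.146 and a median G2M score of -0.0329. Their calls depended on the table, since 49 of the 62 were G1 by the stage table, whereas none of the 26 pMN2 cells named RG was. The 20 cells that were MEP Glia in both tables were all called S by the integrated table, with a median S score of 0.658. The 20 pMN1 cells named MEP Glia had 14 S and 6 G2M calls, a mixture of phases as in the 47 pMN2 cells of that name. The 111 NP1 cells named RG had 47 S, 21 G2M and 43 G1 calls.

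A split by phase was also seen between the names at 24 hpf. There 59 of the 67 pMN2 cells named pMN3 were called G2M (88.1%, 77.8 to 94.7), against 9 of the 23 named pMN1 (39.1%, 19.7 to 61.5). The 73 cells that were pMN3 in both tables had 61 S and 12 G2M calls, so the stage-table name pMN3 joined G2M-called cells of pMN2 with S-called cells of pMN3. At 36 hpf no such split was resolved, with 68 of 93 G2M calls among the cells named pMN3 (73.1%, 62.9 to 81.8), 24 of 27 among those named pMN1 (88.9%, 70.8 to 97.6) and 17 of 21 among those named pMN2 (81.0%, 58.1 to 94.6), all with overlapping intervals.

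**Figure D4:**
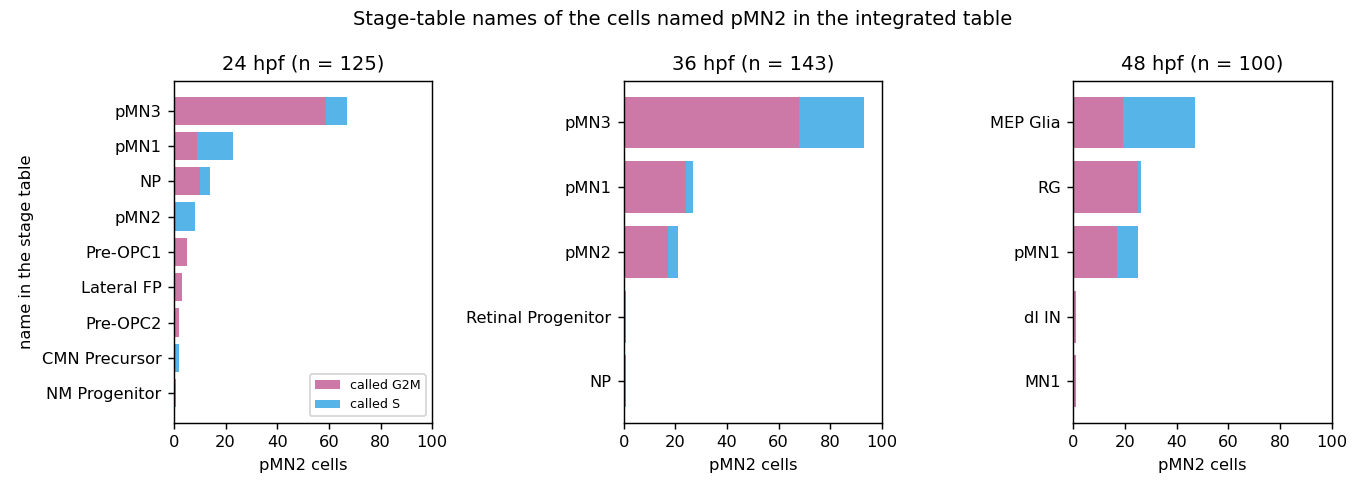
Number of pMN2 cells (horizontal) with each stage-table name (vertical) at 24, 36 and 48 hpf, divided into cells called G2M and S in the integrated table. pMN3 leads with 67 and 93 cells at the earlier stages, and MEP Glia leads with 47 cells at 48 hpf, where RG is G2M in 25 of 26 cells.

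In the other direction, the stage-table name pMN2 was given mainly to cells of other integrated classes. At 24 hpf 213 cells had this name, of which 98 were pMN1, 86 pMN3, 9 NM Progenitor and 8 pMN2 in the integrated table. At 36 hpf 125 cells had it, of which 32 were pMN1, 21 pMN2, 20 Mes1, 19 pMN3 and 11 MEP Glia. The 36 hpf cells with this name were deep, with a median UMI count 2.58 times that of all other cells of the stage. The 21 that were pMN2 in both tables had a median of 11640 UMIs, against 6347 in the 93 pMN2 cells named pMN3. At 24 hpf the order was the opposite. The 8 cells that were pMN2 in both tables there had a median of 3167.5 UMIs, against 11708 in the 67 pMN2 cells named pMN3. Without the 5% of cells of each library with the most UMIs, 5.43% of the pMN2 cells at 36 hpf kept the name.

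pMN2 cells had a higher median of captured RNA molecules (UMIs) than the other cells of their stage. The median was 10706 UMIs in pMN2 (interquartile range 4781 to 12910) and 8840 in other cells (6610 to 11404) at 24 hpf, a ratio of 1.21. It was 6845 in pMN2 (5509.5 to 7934) and 4440 in other cells (3491 to 6011) at 36 hpf, a ratio of 1.54, and 10203 in pMN2 (8381.25 to 11966) and 5628 in other cells (4177 to 8121.75) at 48 hpf, a ratio of 1.81. Against pMN1 and pMN3 together the ratios were 0.967, 1.01 and 1.03. The medians were 11612.5, 6901 and 10525 UMIs in pMN1, and 10690 and 6433 in pMN3 at 24 and 36 hpf. This depth was thus shared by pMN1 at each stage and by pMN3 at 24 and 36 hpf. At 48 hpf pMN3 had a median of 7936 UMIs in 13 cells, too few to place it. Against all other cells called S or G2M the ratios were 1.06, 1.06 and 1.48. RNA content and capture cannot be told apart within a library.

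Within pMN2 the S-called cells of 24 hpf stood out as shallow. Their median was 4327.5 UMIs (interquartile range 2593.25 to 9124.5, 34 cells), whereas the G2M-called cells of pMN2 had 11807 (9773.5 to 13763.5, 91 cells). S-called cells of pMN1 and pMN3 at 24 hpf had medians of 10708.5 and 10326. The gap was small at the later stages. At 36 hpf the median UMI counts were 6027 in S-called and 7029 in G2M-called pMN2 cells, and at 48 hpf 10261 and 10145. The ratio of S-called over G2M-called cells at 24 hpf was 0.367, and it was 0.693 among cells with at least 2000 UMIs. The S-called pMN2 cells of 24 hpf also had more mitochondrial RNA, with a median of 1.40%, against 0.691% in the G2M-called pMN2 cells, and the part of this in the other values was not tested. Their median S score was 1.06, close to the 1.10 of the S-called pMN2 cells at 48 hpf.

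Cells below 3000 UMIs were 20 of the 125 pMN2 cells at 24 hpf (16%, 10.1 to 23.6), against 10.2% of other cells, 3.91% of pMN1 cells and 3.30% of pMN3 cells. These 20 cells were 10 S and 10 G2M calls, and their median mitochondrial share was 3.05%, against 0.692% in the deeper pMN2 cells. At 36 hpf 16 of 143 pMN2 cells were below 3000 UMIs (11.2%, 6.53 to 17.5), with a median mitochondrial share of 3.65%, and at 48 hpf 2 of 100 were. In other cells the shares below 3000 UMIs were 17.7% at 36 hpf and 9.76% at 48 hpf. In pMN1 and pMN3 they were 3.91% and 7.37% at 36 hpf, and 0 of 55 and 4 of 13 cells at 48 hpf. Among the 111, 131 and 98 pMN2 cells with at least 2000 UMIs, a limit that keeps some of these cells, the share of G2M calls was 75.7%, 77.9% and 62.2% at the 3 stages.

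pMN2 cells also had more detected genes. The median was 2296 genes in pMN2 and 2040 in other cells at 24 hpf, 1662 and 1322 at 36 hpf, and 2505 and 1913.5 at 48 hpf. In pMN1 it was 2375.5, 1726 and 2661 genes, and in pMN3 2163, 1553 and 2130. When all other cells are compared below, both classes are among them. When the other cells were weighted to the UMI counts of the pMN2 cells, an alternative chosen after seeing the data, their medians were 2205, 1651 and 2593 genes. The weighting still left the median UMI count of pMN2 at 1.04, 1.04 and 1.03 times that of the other cells. With it pMN2 was 91 and 11 genes above the other cells at 24 and 36 hpf and 88 genes below them at 48 hpf. The part of the remaining depth difference in these values was not tested. The other cells with the weighting had 35.7%, 30.3% and 6.86% G2M calls, against 29.0%, 16.7% and 6.36% without it. In pMN2 the shares were 72.8%, 77.6% and 63%. The G2M difference thus kept its direction but was smaller with the weighting at 24 hpf (37.1 against 43.8 percentage points) and 36 hpf (47.3 against 60.9). At 48 hpf it was 56.1 against 56.6.

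Mitochondrial shares of pMN2 and other cells lay close together. The median was 0.764% in pMN2 and 0.682% in other cells at 24 hpf, 0.948% and 1.06% at 36 hpf, and 2.11% and 2.37% at 48 hpf. Against all other cells pMN2 was the higher at 24 hpf, where its upper quartile was 1.35% against 0.884% in other cells, and the lower at the later stages. In pMN1 and pMN3 together the medians were 0.677%, 0.995% and 1.77%. pMN2 was thus above these classes at 24 and 48 hpf and below them at 36 hpf. In other cells called S or G2M the medians were 0.665%, 0.977% and 2.12%, the last close to that of pMN2. Within pMN2 the S-called cells had the higher median at each stage, with 1.40% in S-called and 0.691% in G2M-called cells at 24 hpf, 1.08% and 0.912% at 36 hpf, and 2.46% and 2.01% at 48 hpf.

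**Figure D5:**
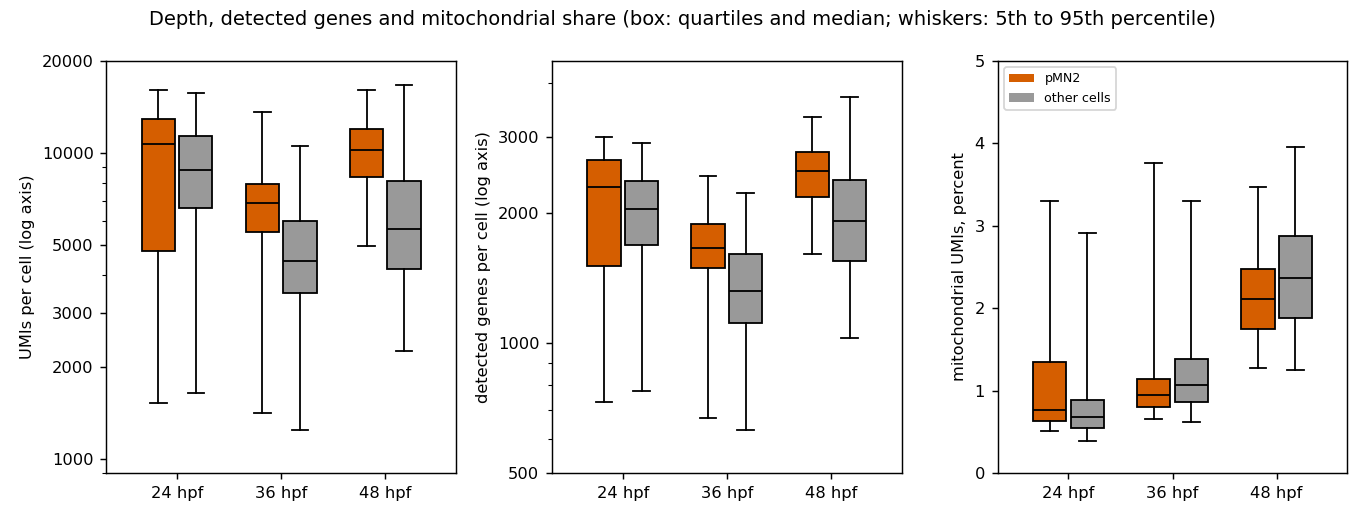
UMIs per cell (log axis), detected genes per cell (log axis) and mitochondrial percent in pMN2 cells and other cells by stage. Boxes give quartiles and median and whiskers the 5th to 95th percentile of the cells of 1 library. The pMN2 medians of UMIs are 1.21, 1.54 and 1.81 times those of other cells.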

How the data were processed

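The files used were 1 integrated table of cells and 3 stage tables. The submitters' processing notes name Cell Ranger and Seurat as tools and GRCz11 as the build. Their versions, settings and handling of doublets: not given in the sources used here. UMIs and detected genes per cell are counts deposited without normalisation, per the file headers. The mitochondrial value is a percent deposited per cell, at most 4.995%, and the fewest UMIs were 504, and cells beyond these values were not analysed here. S, G2M and CC.Difference are scores deposited by the authors, relative to the cells scored together. All 6264 cells were matched by barcode and stage, with equal UMIs in both kinds of table. The phase name followed the higher score in 6264 cells.

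Shares, exact binomial intervals, conditional intervals of ratios, medians and interquartile ranges were computed with Python 3.11.15, numpy 2.4.6, pandas 2.3.3 and scipy 1.17.1, and plots with matplotlib 3.10.9, and the intervals and the weighting were tested on simulated data. Intervals of weighted counts, rounded to whole cells, were not part of that test. Depth weighting used 20 bins of log UMIs, and a count of 0 in a ratio was replaced by a floor of 3 cells. The alternatives tried were a minimum of 2000 UMIs per cell, removal of the 5% deepest cells, at most 3% mitochondrial reads, stage-table names and phases, a higher score above 0.1, and other comparison cells. Named were the pMN classes, stage-table names with at least 5 pMN2 cells, integrated classes with at least 5 cells named pMN2 in a stage table, and RG and MEP Glia, and other names that are given in counts or comparisons were chosen after their values were seen. The members, lists and comparisons were chosen with earlier results of these data known.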

Additional observations from a re-analysis of the deposited data

Results flagged for a closer look

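In 3 measures the direction of pMN2 against the other cells of its stage differed between stages. With 1 library per stage these differences between stages were not tested. The median mitochondrial share of pMN2 was 0.0819 percentage points above that of other cells at 24 hpf, and its difference was -0.114 at 36 hpf and -0.257 at 48 hpf. At 48 hpf the direction depended on the comparison cells. The median of pMN1 and pMN3 together was 1.77% there, below the 2.11% of pMN2. Against other cells weighted to the UMI counts of pMN2 the differences were 0.0473, -0.0784 and -0.305. This weighting left the median UMI count of pMN2 at 1.04, 1.04 and 1.03 times that of the other cells. The median number of detected genes in pMN2, against other cells at the same weighting, differed by 91 genes at 24 hpf and 11 at 36 hpf, whereas the 48 hpf value was -88 genes. The median S score of pMN2 against other cells at the same weighting differed by -0.0226 at 24 hpf and -0.0207 at 36 hpf, whereas the 48 hpf value was 0.270. The unweighted differences were above 0 at all 3 stages (0.0203, 0.148 and 0.291). With the scores of the stage tables the weighted differences were also above 0 at all 3 stages (0.0176, 0.00967 and 0.0715).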

How the results depend on the processing

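Of 85 recomputed values, 59 stayed within the interval of the reported value and 26 did not. All values recomputed with at least 2000 UMIs, at most 3% mitochondrial reads, a higher score above 0.1 or the stage-table phases stayed within it. For the UMI ratio of S-called over G2M-called pMN2 cells at 24 hpf that interval was wide (0.263 to 0.765), though it takes the G2M-called median as fixed. With at least 2000 UMIs this ratio went from 0.367 to 0.693. The S-called over G2M-called ratios were added after seeing the data and are counted here. Leaving out the 5% deepest cells moved 1 value, the share of pMN2 cells with the same name at 36 hpf, to 5.43%. With the stage-table name in place of the integrated one, the pMN2 share was 11.7% at 24 hpf and 0% at 48 hpf, G2M calls were 36.2% at 24 hpf and 45.6% at 36 hpf, the UMI ratios were 1.41 and 2.58, and the log2 ratios of shares were -0.93 at 36 over 24 hpf and, with the floor and now called, -6.54 at 48 over 24 hpf and -5.61 at 48 over 36 hpf. The stage table has no pMN2 cell at 48 hpf, so G2M calls and UMI ratios have no value there. Over the pMN classes of the integrated names as the denominator, the shares were 22.0%, 34.3% and 59.5%. The log2 ratios were 0.64 at 36 over 24 hpf, 0.80 at 48 over 36 hpf and 1.43 at 48 over 24 hpf, the last now called. Both ratios of the 48 hpf share reversed in direction, because pMN1 and pMN3 had lower shares at 48 hpf. Over all cells they were -0.74 at 48 over 36 hpf and -0.71 at 48 over 24 hpf. Weighted to a common UMI distribution, the 36 hpf share was 11.4% and the log2 ratios were 0.98 at 36 over 24 hpf, -0.30 at 48 over 24 hpf and -1.28 at 48 over 36 hpf. The last was now called, from weighted counts treated as cells, and the cause was not tested. Against other cells called S or G2M the UMI ratios were 1.06, 1.06 and 1.48, and against pMN1 and pMN3 they were 0.967, 1.01 and 1.03. No paired analysis was possible because each stage has 1 library and no test was run. With 125, 143 and 100 pMN2 cells per stage, counting error limits the shares within the class.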
